A study of Drosophila melanogaster with 23 samples.

Results

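The 8 genes described here are grouped as enzymes of the citric acid cycle, which runs in the mitochondrial matrix. They are kdn, Acon, Idh, Nc73EF, skap, Scsalpha, l(1)G0255 and Mdh2, of which Idh encodes an NADP-dependent enzyme that acts beside the cycle, and they were found by symbol among the 17521 genes of the count table. Whole brains of Canton-S flies, a common laboratory wild-type strain, were dissected from adults aged 5, 20, 30 or 40 days, with females and males kept apart, and every library came from 1 pool of 18 brains. There were 8 groups of 3 libraries, named A, B and C, but the males aged 30 days had B and C alone, since the study set the remaining sample aside for female material. No group carried a mutation, transgene or drug treatment, and the groups are labelled by age and sex. The samples were numbered by age, first those of 5 and 30 days and then those of 20 and 40 days, so age goes with that order. The purpose of the series was to follow the brain transcriptome over adult life.

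The citric acid cycle oxidises the acetyl group of acetyl-CoA to carbon dioxide and passes the electrons on as NADH and reduced ubiquinone, which feed the respiratory chain. Citrate synthase starts the cycle and malate dehydrogenase closes it by renewing oxaloacetate, while pyruvate dehydrogenase delivers most of the acetyl-CoA made from glucose. Neurons draw much of their ATP from this route, and in flies loss of citrate synthase activity in knockdown (kdn) mutants gives seizures after mechanical shock.

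Library totals ran from 6770442 to 28687450 counts, with a median of 15628443. Members were well covered, since a single member had between 586 and 26107 counts in a library and the 8 together had 17797 to 131830. Levels below are counts per 1000000 counts (CPM) after scaling by trimmed mean of M-values (TMM) over all 23 libraries. The sex of every library matched roX1, roX2 and msl-2, and the neuronal markers elav, nSyb, brp, Syt1 and Syx1A were present in all libraries. Genes of neighbouring tissues were present too. The gut gene mex1 was above 10 CPM in 5 libraries, namely female 5-day B, female 30-day A and B, female 40-day A and male 40-day C, where it ranged from 16.4 to 161 CPM, and it was at most 7.93 CPM in the others. Gut RNA was not confined to these, since 9 gut genes summed to as much as 4182 CPM in another library, male 20-day A. The sum of 7 photoreceptor genes ranged from 2183 CPM in female 5-day C to 32150 CPM in male 20-day A. In bulk brain RNA, fewer cells of a type and less RNA per cell cannot be told apart.

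Transcripts of 5 of the 8 enzymes were lower in 40-day-old than in 5-day-old females, and none was higher. These were Mdh2, Scsalpha, kdn, Acon and l(1)G0255, the last encoding fumarase. A gene was called when it passed a 5% false discovery rate (FDR) both in a test over the 4 ages and in the contrast itself, each sex being fitted alone with edgeR. By this rule 4.87% of the 10505 genes tested in females fell between 5 and 40 days, against 5 of the 8 members. At 20 days kdn and Acon had fallen, beside 1.83% of all genes tested. No member was called at 30 days, when 4.82% of all genes fell. The unadjusted p at 30 days was under 0.05 for 1 member, kdn, beside 15.1% of all genes, and DESeq2 called it. Shares of all genes are those of edgeR throughout, and calls by DESeq2 are given without such a share. The study also used DESeq2, and in every comparison with 5 days it reported more genes than edgeR called here.

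No member was called in males at any age. Of the 10799 genes tested in males, 0.00926% fell at 20 days, 0% at 30 and 0.102% at 40. At an unadjusted p under 0.05, 6 of the 8 members were lower in 40-day-old than in 5-day-old males, beside 10.7% of all genes. DESeq2 called 4 of them (Mdh2, Scsalpha, kdn and l(1)G0255), a count with no share of all genes beside it. At 20 days the unadjusted p was under 0.05 for kdn alone, beside 7.28% of genes that were lower at that p, and at 30 days for Mdh2 alone, beside 3.74%, and DESeq2 called 0 at both ages. Groups whose older libraries were all below the 5-day ones were found for 4, 1 and 6 of the 8 members in females at 20, 30 and 40 days, beside 14.9%, 19.1% and 18.6% of all genes. In males this held for 2, 3 and 6 members, beside 8.85%, 13.2% and 11.7%. The median log2 fold change of the 8 members from 5 days, negative where older flies had less, was −0.36 at 20 days, −0.19 at 30 and −0.65 at 40 for females, against −0.19, −0.31 and −0.78 for males. Over all genes tested the same medians lay between −0.04 and 0.01.

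**Figure D1:**
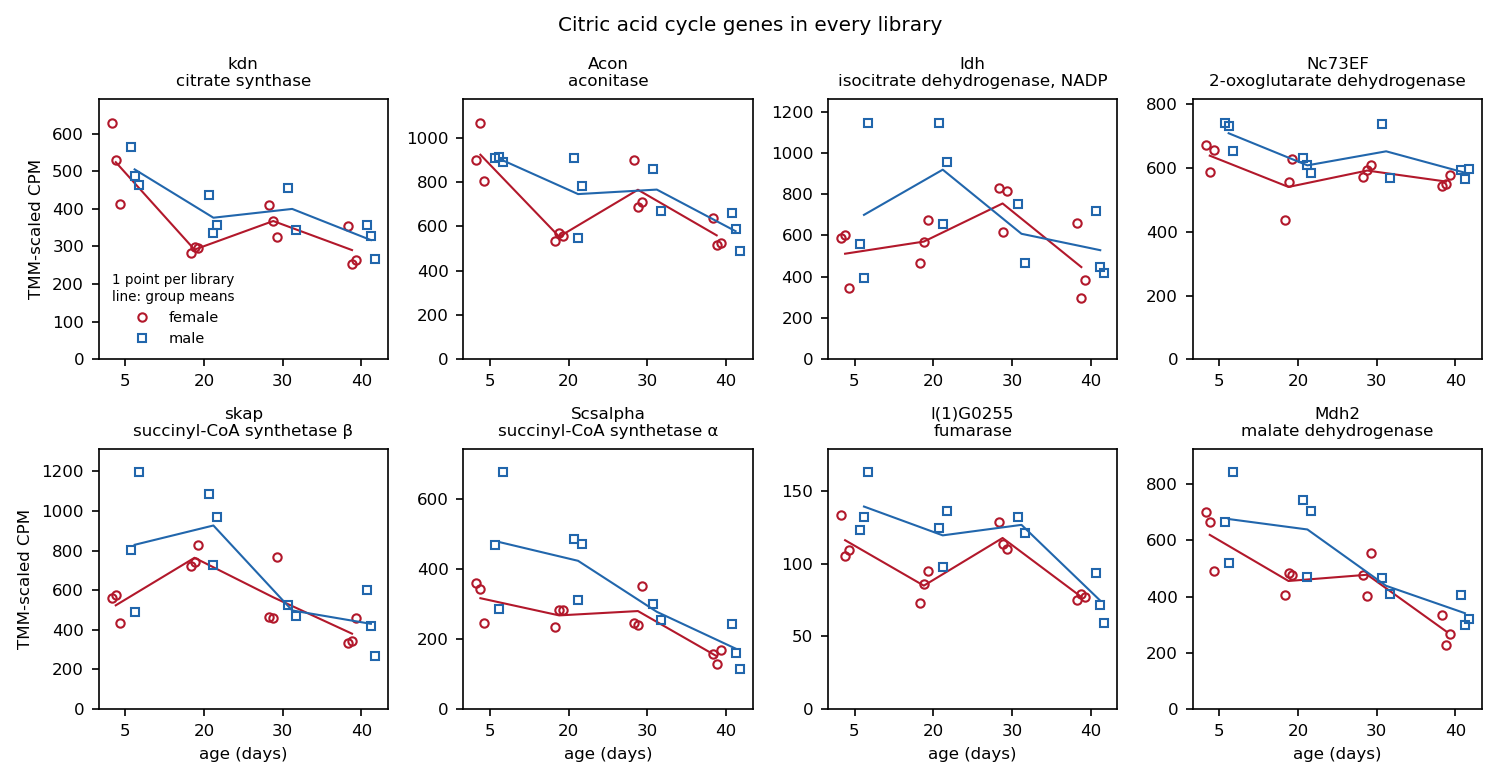
TMM-scaled CPM (vertical axis, starting at 0) of each of the 8 citric acid cycle genes by age in days (evenly spaced on the horizontal axis), with 1 point per library, circles for females, squares for males and lines through the group means. The 3 female libraries at 40 days lay between 228 and 333.8 CPM for Mdh2 and between 129 and 168 CPM for Scsalpha, below every female library at 5 days, whereas Idh was spread from 396 to 1147 CPM in 5-day-old males alone.

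The kdn gene encodes citrate synthase, which joins acetyl-CoA to oxaloacetate at the entry of the cycle. It lies on chromosome X at 6350629 to 6361323, plus strand, in the Release 6 (dm6) genome used for all positions here. In females the libraries A, B and C had 630, 531 and 412 CPM at 5 days, 282, 298 and 296 at 20 days, 410, 369 and 325 at 30 days, and 353, 254 and 264 at 40 days. Every older female library was thus below every 5-day library, and the 20-day libraries were also below all the 30-day ones. In the fit of females, kdn fell by 0.86 at 20 days (log2 scale, SE 0.18, adjusted p = 0.0367) and by 0.84 at 40 days (SE 0.18, adjusted p = 0.0170). Its value at 30 days was −0.57 (adjusted p = 0.0774).

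Males had 565, 487 and 463 CPM of kdn at 5 days, 438, 335 and 356 at 20 days, 456 and 344 at 30 days, and 356, 329 and 266 at 40 days. The male groups at 20, 30 and 40 days likewise did not overlap with 5 days. The log2 differences were −0.41, −0.36 and −0.66, of which the last had an adjusted p of 0.0702.

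Acon encodes mitochondrial aconitase, the iron-sulfur enzyme that turns citrate into isocitrate. It lies on chromosome 2L at 21168570 to 21173185, plus strand, and its exons share 12 bases with genes of the opposite strand. Females had 899, 1069 and 803 CPM at 5 days, 532, 570 and 559 at 20 days, 900, 688 and 709 at 30 days, and 637, 518 and 524 at 40 days. The 20-day and 40-day libraries were all below the 5-day ones, while the 30-day libraries overlapped with them and were all above those at 20 days. Acon fell by 0.75 in females at 20 days (SE 0.16, adjusted p = 0.0367) and by 0.71 at 40 days (SE 0.16, adjusted p = 0.0180), and its value at 30 days was −0.33 (adjusted p = 0.214).

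The 5-day male libraries were nearly equal for Acon, at 909, 914 and 893 CPM, a coefficient of variation of 1.21%. Later male libraries had 907, 546 and 784 CPM at 20 days, 861 and 671 at 30 days, and 659, 587 and 489 at 40 days. The 30-day and 40-day groups did not overlap with 5 days, and the difference at 40 days was −0.64 (95% interval −1.10 to −0.18, adjusted p = 0.122).

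Idh, on chromosome 3L at 8356404 to 8360906 on the minus strand, encodes the NADP-dependent isocitrate dehydrogenase, which makes NADPH. The NAD-dependent enzyme that drives the cycle itself is built from other genes, given with the partner subunits. Idh had 587, 602 and 344 CPM in females at 5 days, 468, 568 and 675 at 20 days, 832, 619 and 814 at 30 days, and 660, 298 and 383 at 40 days. All the female libraries at 30 days were above all those at 5 days, with a log2 difference of 0.51 (SE 0.31, adjusted p = 0.342). In males it had 556, 396 and 1147 CPM at 5 days, 1147, 654 and 956 at 20 days, 750 and 466 at 30 days, and 717, 449 and 420 at 40 days. Idh was the most variable member within groups, with a median coefficient of variation of 29.7%, against 12.3% for 3730 genes with a mean of 50 to 1500 CPM. Its intervals were correspondingly wide, from −0.88 to 0.50 in females and from −1.33 to 0.50 in males at 40 against 5 days.

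Nc73EF encodes the decarboxylase subunit of the 2-oxoglutarate dehydrogenase complex, which releases carbon dioxide and makes succinyl-CoA. The gene lies on chromosome 3L at 16954822 to 16968724, plus strand, and shares 294 exonic bases with Cpr73D on the opposite strand and 63 with Obp73a. Its CPM in females was 674, 587 and 657 at 5 days, 437, 557 and 629 at 20 days, 572, 594 and 611 at 30 days, and 544, 551 and 578 at 40 days. Males had 743, 731 and 654 CPM at 5 days, 630, 610 and 586 at 20 days, 738 and 568 at 30 days, and 595, 565 and 597 at 40 days. Nc73EF was the least variable member, with a median coefficient of variation of 5.22%. In both sexes the 40-day libraries were all below the 5-day ones, but the means at 40 days were still 87.3% of those at 5 days in females and 82.5% in males. The log2 differences were −0.19 (95% interval −0.51 to 0.14, adjusted p = 0.462) and −0.27 (−0.58 to 0.05, adjusted p = 0.320).

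Succinyl-CoA synthetase makes a nucleoside triphosphate directly as it splits succinyl-CoA, and it consists of an α subunit shared by all forms of the enzyme and a β subunit that sets the nucleotide. Scsalpha encodes the α subunit and lies on chromosome 3L at 3814211 to 3818383, plus strand. Its CPM in females was 361, 344 and 247 at 5 days, 235, 284 and 285 at 20 days, 246, 242 and 353 at 30 days, and 157, 129 and 168 at 40 days. The 40-day females were below every younger female library, while the other ages overlapped with each other. Scsalpha fell by 1.06 between 5 and 40 days (SE 0.21, adjusted p = 0.0121), by 0.81 between 20 and 40 days (adjusted p = 0.0471) and by 0.84 between 30 and 40 days (adjusted p = 0.0370). In males the CPM was 469, 287 and 677 at 5 days, 488, 312 and 473 at 20 days, 301 and 256 at 30 days, and 244, 161 and 114.7 at 40 days. The 40-day males too were below every younger male library, and the difference from 5 days, −1.47 (SE 0.36, adjusted p = 0.0578), was the lowest of any member in either sex.

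The β subunit of the ADP-forming enzyme comes from skap, on chromosome 3R at 8938724 to 8943027, plus strand, which shares 74 exonic bases with CG11964 on the opposite strand. In females skap had 560, 578 and 433 CPM at 5 days, 723, 740 and 829 at 20 days, 463, 462 and 769 at 30 days, and 336, 345 and 462 at 40 days. The 20-day libraries were above every 5-day library, which held for no other member, although the difference of 0.53 was not called (SE 0.23, adjusted p = 0.225). From 20 to 40 days the value was −0.99, with an adjusted p of 0.0370 in the contrast but 0.0610 in the test over ages, so skap was not called there either. Males had 805, 488 and 1195 CPM at 5 days, 1085, 727 and 969 at 20 days, 525 and 472 at 30 days, and 603, 420 and 268 at 40 days. The 30-day and 40-day males were below all the 20-day ones but overlapped with the widely spread 5-day group, and the difference between 40 and 5 days was −0.96 (SE 0.36, adjusted p = 0.171).

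The gene named l(1)G0255 encodes fumarase, which adds water to fumarate to give malate. It lies on chromosome X at 6678424 to 6681845, plus strand, and overlaps by 79 exonic bases with the neighbouring fumarase gene CG4095 and by 77 with ND-ASHI on the opposite strand. Female CPM was 134, 106 and 109 at 5 days, 73.3, 86.4 and 95.1 at 20 days, 129, 114 and 110 at 30 days, and 75.3, 79.1 and 77.2 at 40 days. The 20-day and 40-day libraries were below all of the 5-day and 30-day ones, with a 30-day value at the level of 5 days (−0.03, SE 0.13). The gene fell by 0.58 from 5 to 40 days (SE 0.13, adjusted p = 0.0234) and by 0.55 from 30 to 40 days (adjusted p = 0.035), and was not called at 20 days (−0.46, adjusted p = 0.0893), although DESeq2 called it there (adjusted p = 0.0462). The call at 40 against 5 days was lost with library totals in place of TMM (adjusted p = 0.0507), with a trend on gene length removed (0.0585) and with only the 2 ages compared (0.056).

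Male CPM of l(1)G0255 was 123, 132 and 163 at 5 days, 124, 98.0 and 136 at 20 days, 132 and 121 at 30 days, and 93.6, 71.3 and 59.0 at 40 days. The 40-day males lay below every younger male library. The difference from 5 days, −0.90 (SE 0.20), passed the contrast (adjusted p = 0.0439) but not the test over ages (adjusted p = 0.167).

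Mdh2 encodes mitochondrial malate dehydrogenase, which renews oxaloacetate, and lies on chromosome 3R at 18226396 to 18228718, plus strand. Females had 702, 666 and 491 CPM at 5 days, 407, 484 and 476 at 20 days, 477, 402 and 554 at 30 days, and 333.8, 228 and 268 at 40 days. The 40-day libraries were below every younger female library, and the mean at 40 days was 44.7% of that at 5 days. Mdh2 fell by 1.16 (SE 0.20, adjusted p = 0.00732) from 5 to 40 days and by 0.73 from 30 to 40 days (adjusted p = 0.0499). In males it had 665, 521 and 842 CPM at 5 days, 743, 469 and 704 at 20 days, 466 and 411 at 30 days, and 407, 297 and 319 at 40 days. The 30-day and 40-day males did not overlap with the younger ages, though the highest 30-day library (465.6) was close to the lowest 20-day one (468.8). The differences from 5 days were −0.66 (adjusted p = 0.738) and −0.99 (SE 0.24, adjusted p = 0.0586).

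**Figure D2:**
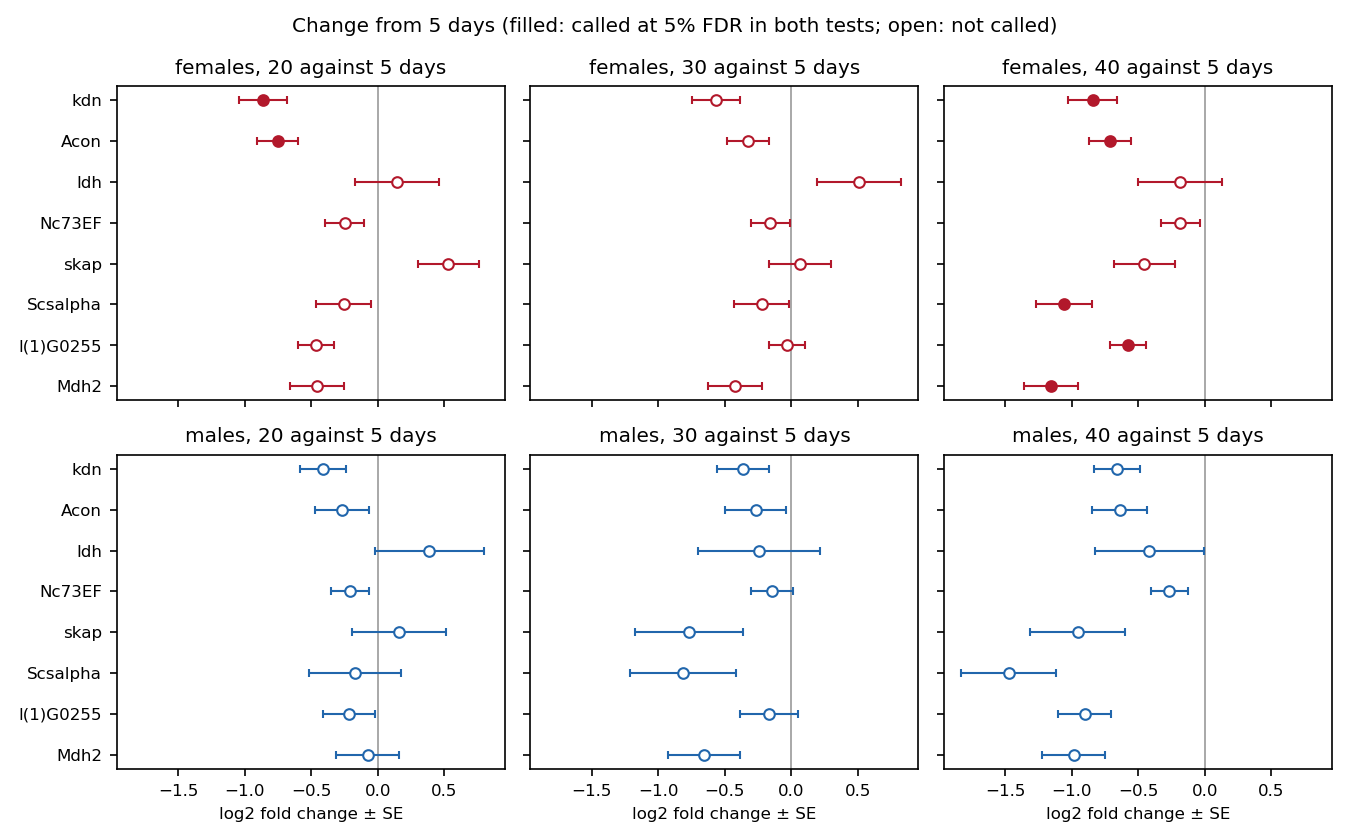
Log2 fold change from 5 days of the 8 genes (horizontal axis, bars ± SE from edgeR) at 20, 30 and 40 days, females in the upper row and males in the lower, with filled points called at a 5% FDR in both tests and open points not called. In females kdn and Acon were called at 20 days and 5 genes at 40 days, from −0.58 for l(1)G0255 to −1.16 for Mdh2; in males no point was filled, although at 40 days all 8 lay below 0.

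Between the later ages, 1 member fell in females from 20 to 40 days (Scsalpha, beside 3.48% of all genes) and 3 from 30 to 40 days (Mdh2, Scsalpha and l(1)G0255, beside 2.88%). None was called from 20 to 30 days, where 0% of all genes fell and DESeq2 called no member, and 2 members (Acon at 0.43 and l(1)G0255 at 0.43) were higher at an unadjusted p under 0.05, beside 6.17% of all genes. In males no member was called between later ages, beside 0.00926% of all genes from 20 to 40 days and 0% in the other steps. From 20 to 40 days 4 male members had an unadjusted p under 0.05 and were lower, beside 7.89% of all genes, and DESeq2 called 2. From 20 to 30 days 1 was, skap, beside 6.46%, and from 30 to 40 days 1, l(1)G0255, beside 3.31%, with 0 called by DESeq2 in both. All older libraries were below all younger ones for 0, 3 and 4 female members from 20 to 30, 20 to 40 and 30 to 40 days. The shares of all genes were 7.55%, 17.6% and 17.1%. In males this held for 3, 4 and 4 members, beside 21.1%, 10.3% and 16.5%. For 3 female members every 30-day library was above every 20-day one, given without such a share. Summed over the 8 genes, the CPM in females was 4176 ± 589 (SD, n = 3) at 5 days, 3529 ± 347 at 20 days, 3921 ± 389 at 30 days and 2741 ± 346 at 40 days. The sum in males was 4942 ± 1042, 4760 ± 924, 3769 ± 651 (n = 2) and 3029 ± 586.

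The calls in females depended on single libraries. At 40 against 5 days the count of members called was 0 without 40-day replicate B or without 40-day replicate C, 2 without 5-day replicate A, 3 without 5-day replicate B or 40-day replicate A, and 4 without 30-day replicate A or B. At 20 days it was 0 without 5-day replicate A or B, without any one of the 20-day libraries, or without 40-day replicate B or C, and 1 without 30-day replicate A. From 20 to 40 days the count was 1 without 5-day replicate B, 3 without 5-day replicate C, 2 without 30-day replicate C, and 0 without any other single library. From 30 to 40 days the count was 0 without 30-day replicate A or B or any 40-day library and 1 without 5-day replicate A or 30-day replicate C. The size of the differences moved less. With 1 library left out at a time, Mdh2 at 40 days stayed between −1.33 and −1.01 with an adjusted p in the contrast of at most 0.0332, and kdn at 20 days stayed between −0.999 and −0.71. Of the other female calls at 40 against 5 days, those of kdn and Acon were lost with only the 2 ages compared and that of Scsalpha with both sexes in 1 fit. The 20-day calls of kdn and Acon were lost with only the 2 ages compared. From 30 to 40 days all 3 calls were lost with the length trend removed, that of Mdh2 also with only the 2 ages compared, that of Scsalpha with both sexes in 1 fit and that of l(1)G0255 with library totals.

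The sexes were compared in 1 fit of the 8 groups over 11332 genes. No member differed between the sexes in its change from 5 days, where 0% of all genes were called at 20, 30 or 40 days, and 0 of the 8 had an unadjusted p under 0.05, beside 4.02%, 8.75% and 6.28% of all genes. DESeq2 called 0 members too. The intervals were wide, so that for Mdh2 at 40 days the female change minus the male change was −0.18 with a 95% interval of −0.81 to 0.46. At 20 days all 8 members were lower in females than in males, with a median of −0.46, and 4 of them had an unadjusted p under 0.05, beside 12.1% of all genes. None passed the FDR, by which 0.344% of all genes were called. At 5 days 1 member, skap, had an unadjusted p under 0.05 (−0.66), beside 3.99% of all genes, and at 30 and 40 days none had, beside 24.7% and 10.7%. The FDR left 0.168%, 0.997% and 0.362% of all genes at these ages, and no member.

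Markers of other cells moved with some of these results. The summed CPM of 5 fat body genes (Yp1, Yp2, Yp3, Lsp2 and Fbp1) was 22190 to 62260 in females at 5 days, 22210 to 61340 at 20 days, 10460 to 115200 at 30 days and 3792 to 10420 at 40 days. It was therefore lower in all the 40-day females than in any 5-day female. At an unadjusted p under 0.05, 3 of the 4 genes tested were lower, beside 15.2% of all genes. In males, where yolk protein genes are little used, the sum ranged from 232 to 2690 CPM at 5 days and from 87.1 to 273 at 40 days. The male list did not move 1 way, since the serum protein gene Lsp2 was at −5.55 (adjusted p = 0.109) and the other 4 genes above 0, with a median of 1.46 over the 5, and none was called. Fbp1 was at 0 in some libraries of both sexes and never above 1.62 CPM, and all 5 genes had counts somewhere in each group. The library lowest in this sum within its group was also the lowest in Scsalpha and in Idh in 8 of 8 groups, in Mdh2, Acon and skap in 7 of 8, in kdn in 6, in l(1)G0255 in 4 and in Nc73EF in 2. The library highest in the sum was also the highest in the enzyme gene in 6 of 8 groups for Mdh2 and Scsalpha, 5 for skap and l(1)G0255, 4 for kdn and Nc73EF, and 3 for Acon and Idh. Other marker lists had such matches too. Over the 8 enzyme genes, the highest library was shared in 3 to 6 groups for photoreceptor and gut genes and 3 to 7 for hemocyte genes. It was shared in 2 to 4 for glial, 1 to 4 for neuronal and 1 to 3 for muscle genes. The lowest was shared in 4 to 6 groups for photoreceptor, 2 to 6 for gut and 2 to 4 for hemocyte genes. For glial and neuronal genes it was 2 to 5 groups, and for muscle genes 1 to 3. No match was tested, and the share of all genes with as many matches is not given. With 3 libraries in a group, or 2 in 30-day males, some matches arise by chance.

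The summed glial markers were lower at 40 days as well, and in each sex 5 of the 6 genes lay below 0 and 1 above it. Over 6 glial genes the sum was 5112 to 8902 CPM in females at 5 days and 3160 to 3898 at 40 days. The glutamate transporter gene Eaat1 (−0.89) and nrv2 (−0.97) fell, 2 of the 6 genes, beside 4.87% of all genes. Of the others, alrm was at −0.98 (adjusted p = 0.0583) and Gs2 at −0.80 (adjusted p = 0.0372 in the contrast, 0.0754 in the test over ages). The remaining genes were repo at −0.21 (adjusted p = 0.532) and moody at 0.20 (adjusted p = 0.476). At an unadjusted p under 0.05, 4 of the 6 were lower in females, beside 15.2% of all genes. In males the glial sum was 5861 to 9601 CPM at 5 days and 3176 to 5425 at 40 days. There 4 of the 6 genes were lower at an unadjusted p under 0.05, beside 10.7% of all genes, and none was called. Male alrm was at −1.01, Eaat1 at −0.97, Gs2 at −0.87, nrv2 at −0.70, repo at −0.24 and moody at 0.16. The 20 muscle genes summed to 1032 to 2491 CPM in females at 5 days and 1375 to 2571 at 40 days. In males they summed to 1371 to 2459 at 5 days and 963 to 1035 at 30 days. At 30 days in males 12 of the 20 were lower at an unadjusted p under 0.05, beside 3.74% of all genes. The neuronal sum of 5 genes in females was 3172 to 4906 CPM at 5 days, 2390 to 3266 at 20 days, 1844 to 2432 at 30 days and 3190 to 3855 at 40 days. At 30 against 5 days 3 of these 5 genes fell (nSyb, Syt1 and Syx1A), beside 4.82% of all genes. From 30 to 40 days, the step in which Mdh2, Scsalpha and l(1)G0255 fell, 3 rose (elav, Syt1 and Syx1A), beside 3.72%. None of the 5 was called in females at 40 against 5 days or in males at any age against 5 days. The part of fat body, glial, muscle, neuronal, gut and photoreceptor RNA in the values of the 8 enzymes was not tested. Without the 5 libraries rich in mex1, which left 1 female library at 30 days, no member was called, and the female log2 differences at 40 days of the 5 genes called there were from −0.64 to −1.27 (Mdh2 −1.27, Scsalpha −1.04, kdn −1.01, Acon −0.71 and l(1)G0255 −0.64, adjusted p from 0.0525 to 0.184).

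The transcripts of the α and β subunits of succinyl-CoA synthetase varied together within groups, while their ratio differed between some of the ages. In 5-day-old males, where skap ranged from 488 to 1195 CPM and Scsalpha from 287 to 677, the ratio of skap to Scsalpha was 1.72, 1.70 and 1.76 in the A, B and C libraries. The mean ratio in females was 1.66 ± 0.10 (SD, n = 3) at 5 days, 2.86 ± 0.24 at 20 days, 1.99 ± 0.16 at 30 days and 2.52 ± 0.33 at 40 days. In males it was 1.73 ± 0.03 (n = 3), 2.20 ± 0.14 (n = 3), 1.79 ± 0.07 (n = 2) and 2.48 ± 0.14 (n = 3). In both sexes each 20-day and 40-day library thus had a higher ratio than each 5-day library. The same held for each 30-day female library (1.88 to 2.18), whereas the 30-day males overlapped with 5 days. This ratio was chosen after the values were seen and was given no test, and no share over other pairs of genes is given. Another ratio, Mdh1 to Mdh2, also separated in females, at 0.71 to 0.80 at 5 days and 0.94 to 1.29 at the later ages. In males that ratio overlapped between 5 days and every later age. Corrected for exon length, it was 1.08 in 5-day-old females and 1.86 at 20 days, which is a near-equal level per kilobase of both subunits in the young brain. The GDP-forming β subunit gene Sucb was rare beside skap, at 2.56% to 11.96% of its level per kilobase in the 23 libraries.

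**Figure D3:**
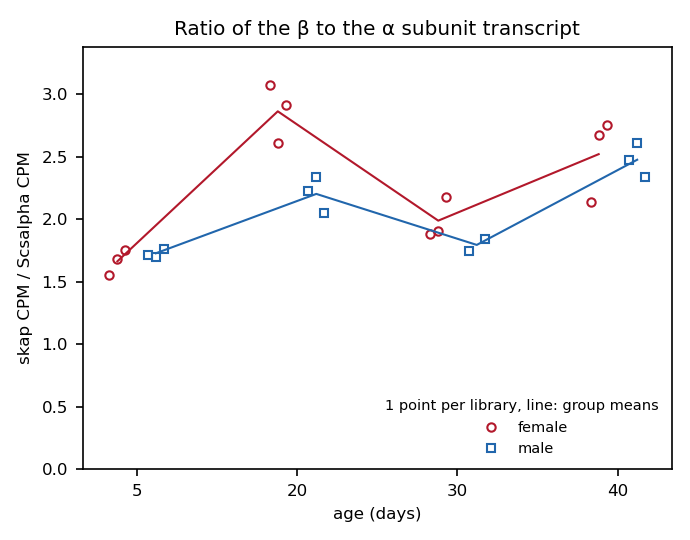
Ratio of skap CPM to Scsalpha CPM (vertical axis, starting at 0) by age in days (evenly spaced), with 1 point per library, circles for females, squares for males and lines through the group means. The 3 male libraries at 5 days lay between 1.70 and 1.76, and in both sexes all libraries at 20 and 40 days lay above all those at 5 days.

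Levels were compared between genes only as CPM per kilobase of exon. Mdh2 had the highest mean level in every one of the 8 groups, from 506 ± 120 (SD, n = 3) in 5-day-old males to 207 ± 39.8 in 40-day-old females, and l(1)G0255 the lowest, from 74.9 ± 11.2 in 5-day-old males to 40.1 ± 9.44 in 40-day-old males. In 5-day-old females the order was Mdh2 (464 ± 84.7), Acon (298 ± 43.5), skap (230 ± 34.8), Scsalpha (214 ± 41.3), Idh (210 ± 59.5), kdn (185 ± 38.4), Nc73EF (120 ± 8.63) and l(1)G0255 (62.4 ± 8.21). The neighbours from skap to kdn overlapped in their libraries. In 40-day-old females Mdh2 (207), Idh (183), Acon (180) and skap (167) overlapped from one to the next, as did Nc73EF (104), kdn (102) and Scsalpha (102). A gene that lost little, such as Nc73EF, stood near kdn at 40 days and below it at 5 days.

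Many enzymes of the cycle are complexes whose other subunits come from genes outside the 8, and the cycle is fed by pyruvate dehydrogenase. Of 17 such genes, 9 cycle partners and 8 genes of pyruvate entry, 11 fell in females between 5 and 40 days, beside 4.87% of all genes, and none rose. The median log2 difference was −0.86 in females and −0.64 in males. In males edgeR called none, beside 0.102% of all genes, and an unadjusted p under 0.05 marked 14 as lower, beside 10.7%. DESeq2 called 10 in males, a count given here without a share of all genes. At 20 days 4 of the 17 fell in females (CG6439, CG7430, SdhA and SdhB), beside 1.83% of all genes. At 30 days 5 fell (CG10219, CG11876, CG5028, CG6439 and SdhB), beside 4.82%. In males 0 were called at 20 and 30 days by either tool. At an unadjusted p under 0.05 none was lower at 20 days, beside 7.28% of all genes, and 8 were at 30 days, beside 3.74%. The female count at 40 days was 6 without 40-day replicate C, 8 without 40-day replicate B, between 9 and 13 without any other single library, and 0 without the 5 libraries rich in mex1. At 20 days it was 0 without 5-day replicate A or B, any 20-day library, 30-day replicate A or 40-day replicate B or C, and 2 without 30-day replicate B or 40-day replicate A. At 30 days it was 0 without 5-day replicate A or B, 20-day replicate C, 30-day replicate A or B or 40-day replicate B, 1 without 20-day replicate B or 40-day replicate A or C, and 3 without 20-day replicate A.

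The NAD-dependent isocitrate dehydrogenase, a control point of the cycle, has its 3 subunits encoded by l(1)G0156, CG6439 and CG5028. All of them fell in 40-day-old females, by 0.84 (SE 0.14, adjusted p = 0.00482), 0.64 (SE 0.11, adjusted p = 0.00575) and 0.78 (SE 0.16, adjusted p = 0.0133). The NADP-dependent Idh had −0.19 in the same comparison and was not called. The dihydrolipoyl succinyltransferase gene CG5214, whose product joins that of Nc73EF in the 2-oxoglutarate dehydrogenase complex, fell by 0.91 (SE 0.13, adjusted p = 0.00247). Its decarboxylase partner Nc73EF, at −0.19, was not called.

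Succinate dehydrogenase, which also serves as complex II of the respiratory chain, has 4 subunits. SdhB, the iron-sulfur subunit, fell in females at 40 days by 1.12 (SE 0.13, adjusted p = 0.00107), and the membrane anchors SdhC by 1.08 (SE 0.17, adjusted p = 0.00466) and CG10219 by 0.99 (SE 0.13, adjusted p = 0.00173). The flavoprotein gene SdhA was at −0.37 and not called at 40 days (SE 0.11, adjusted p = 0.0573), but had fallen by 0.55 at 20 days (adjusted p = 0.0329). In males the values at 40 days were −0.67 for SdhB, −0.84 for SdhC, −0.81 for CG10219 and −0.36 for SdhA. Sucb had 0.16 in females and 0.04 in males.

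Pyruvate dehydrogenase has a decarboxylase made from l(1)G0334 and CG11876, a transacetylase from CG5261 and a lipoamide dehydrogenase from CG7430, which the 2-oxoglutarate complex shares. At 40 days these fell in females by 0.91 (SE 0.17, adjusted p = 0.00838), 1.08 (SE 0.13, adjusted p = 0.00148), 1.08 (SE 0.17, adjusted p = 0.00412) and 0.86 (SE 0.11, adjusted p = 0.00155). The same genes had −0.64, −1.02, −0.94 and −1.10 in males. The kinase that switches the complex off, Pdk, was at −0.10 in females and −0.25 in males, and the phosphatase that switches it on, Pdp, at −0.55 and −0.35. Pdp passed the contrast in females (adjusted p = 0.0285) but not the test over ages (0.0595). Mpc1, a subunit of the mitochondrial pyruvate carrier, had −1.39 in females with a wide 95% interval of −2.37 to −0.41 (adjusted p = 0.0762), and CG1516, pyruvate carboxylase, which refills oxaloacetate, had −0.38.

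**Figure D4:**
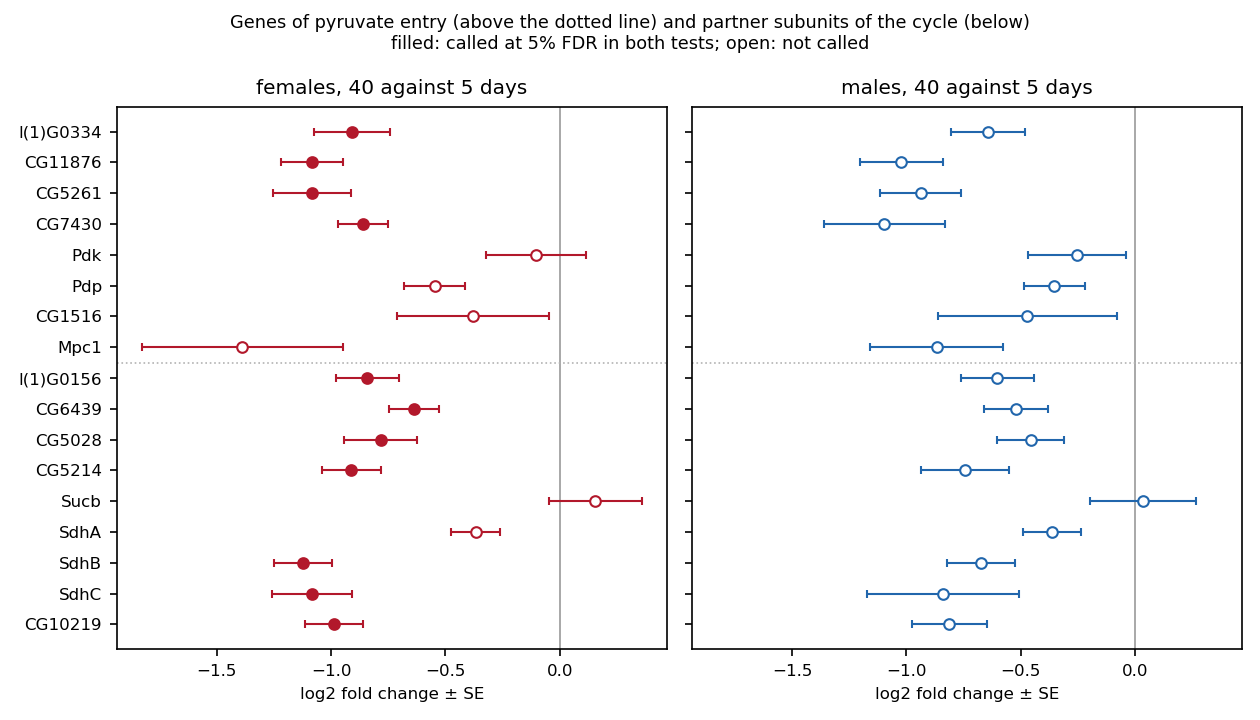
Log2 fold change between 5 and 40 days (horizontal axis, bars ± SE from edgeR) of the 8 genes of pyruvate entry, above the dotted line, and the 9 partner subunits of the cycle, below it, in females (left) and males (right), with filled points called at a 5% FDR in both tests. In females 11 of the 17 points are filled, from −0.64 for CG6439 to −1.12 for SdhB, and in males none, while 16 of the 17 lie below 0 in each sex and Sucb lies above it.

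Genes that use the same metabolites outside the cycle gave no call, though their values at 40 days were also below 0. Of 6 genes of side branches (the malic enzymes Men and Men-b, glutamate dehydrogenase Gdh, the aspartate aminotransferases Got1 and Got2, and ATP citrate lyase ATPCL) none was called in either sex at any age against 5 days. At 40 days 1 in females and 2 in males were lower at an unadjusted p under 0.05, beside 15.2% and 10.7% of all genes. All 6 lay below 0 at 40 against 5 days in each sex, with a median log2 difference of −0.44 in females and −0.67 in males. Of 14 paralogs of the 8 members, 6 had enough counts to be tested in females and 7 in males. The only call among them was Irp-1B, a cytosolic relative of aconitase, which rose by 0.64 in females at 30 days (SE 0.14, adjusted p = 0.0225), beside 1.86% of all genes. Mdh1, the cytosolic malate dehydrogenase, had −0.60 in females (adjusted p = 0.0645) and −0.92 in males at 40 days (adjusted p = 0.225).

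Across the 23 libraries, with levels centred within each sex, Mdh2 and Scsalpha followed the mean profile of the 8 members most closely (r = 0.94 for each) and Nc73EF least (r = 0.58), the libraries sharing depth and tissue makeup and each member being part of that mean. Of 10305 other genes, the 6 with the highest r to the mean profile were blw, ATPsyn-gamma and ATPsyn-beta (0.96, 0.96 and 0.94), which encode the α, γ and β subunits of the mitochondrial ATP synthase, Eno (0.94), the glycolytic enolase, CG6455 (0.94), the inner membrane organising protein mitofilin, and CG5261 (0.93), the transacetylase of pyruvate dehydrogenase. All 6 fell in females at 40 days, by 0.58 for CG6455 to 1.20 for ATPsyn-gamma, beside 4.87% of all genes. They were picked for likeness to a profile of these same libraries that is low at 40 days, so this fall is no separate result. At 40 days 7 of 7 listed ATP synthase genes and 8 of 12 listed glycolytic genes fell in females, beside 4.87% of all genes. None of either list was called in males, where 7 and 9 were lower at an unadjusted p under 0.05, beside 10.7%.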

How the data were processed

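The data are RNA-seq read counts of 23 libraries, each from 18 pooled brains. Per the labels and the study's methods, the authors used Trimmomatic 0.35 to trim the paired reads, STAR to map them to the dm6 genome and HTSeq in union mode to obtain the deposited raw counts per gene. The strand setting of counting is not given in the sources used here, so reads of overlapping antisense genes may be assigned to either gene. Positions and exon lengths come from Ensembl 115 (Release 6), with 12870 symbols matched as written, 4455 by an older symbol and 196 unmatched.

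The test was the robust quasi-likelihood F test of edgeR 4.0.16 (R 4.3.3), after its filterByExpr step and TMM scaling, on age groups within 1 sex, two-sided, adjusted by Benjamini-Hochberg over all genes tested. Log2 fold changes and their SE come from these fits, whereas CPM was scaled over all libraries, and intervals are 95%. The replicates are separate pools, and all pairs of libraries differed by more than sampling noise. Alternatives were DESeq2 1.42.0, other scalings and count filters, removal of a trend with gene length, the replicate letter as a block, other sets of samples and each library left out. On simulated counts for females at 40 against 5 days (10301 genes), 34 of 48 genes lowered by 2 on the log2 scale and 11 of 48 lowered by 1 were called. For males (10557 genes) it was 34 of 49 and 2 of 46. The changed genes were drawn at random from all genes tested, whatever their counts, so these rates are not those of the well-covered members.

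All 8 members were named in every comparison, with the partner and pyruvate-entry genes called in any comparison with 5 days, up to 4 others per sex and the 6 genes of highest r (log2 CPM with 0.5 added). Other genes named, such as the remaining partners, side-branch genes and paralogs, were added after their values were seen. The members and lists were chosen with earlier results of these data known.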

Additional observations from a re-analysis of the deposited data

How the results depend on the processing

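In females, the 2 members called at 20 days, 0 at 30 days and 5 at 40 days became 0 and 2 at 20 and 40 days with only the 2 ages compared, 3 at 20 days (l(1)G0255 added) and 1 at 30 days with DESeq2, and 0 at 20 and 40 days without the libraries rich in mex1, which leaves fewer samples. From 20 to 40 days the 1 call became 3 with at least 10 counts in every library, with DESeq2 or with only the 2 ages, 2 with the contrast alone, and 0 with the length trend removed, both sexes in 1 fit, the replicate block or no mex1 libraries; from 30 to 40 days the 3 calls became 0 with the length trend removed or without the mex1 libraries. In males at 40 days the 0 calls became 4 with DESeq2, 1 with the contrast alone and 3 with both sexes in 1 fit, and from 20 to 40 days 2 with DESeq2 and 1 with both sexes. Of the 17 pyruvate-entry and partner genes, the 4 female calls at 20 days became 7 with library totals or the length trend removed and 0 with 2 ages or no mex1 libraries; the 5 at 30 days became 8 with library totals or DESeq2, 9 with the length trend removed, 2 with no count filter or both sexes, 3 with the replicate block, and 0 with 2 ages or no mex1 libraries; the 11 at 40 days became 0 without the mex1 libraries. The 0 male calls at 40 days became 2 with the length trend removed, 10 with DESeq2, 4 with the contrast alone and 8 with both sexes. The settings also change how many of all genes are called. In males at 40 against 5 days, 1.5% of all genes fell with the contrast alone, against 0.102% by both tests. Shares of all genes under the other settings are not given, so these counts are not results about the members or partners alone. The cause of these changes was not tested.

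Leaving out 1 library gave 0 to 2 members called in females at 20 days, 0 to 1 at 30 days, 0 to 5 at 40 days, and 0 to 3 both from 20 and from 30 to 40 days; 0 to 5, 0 to 5 and 6 to 13 partner and pyruvate-entry genes at 20, 30 and 40 days; and 0 in all counts for males, for the sex difference in change and for females against males. Of the differences from 5 days, those that changed sign, none of them called, ranged in females from −0.0655 to 0.29 (Idh, 20 days), −0.21 to 0.21 (skap, 30 days), −0.0828 to 0.0838 (l(1)G0255, 30 days) and −0.60 to 0.055 (Idh, 40 days). In males they ranged from −0.24 to 0.13 (Mdh2, 20 days), −0.12 to 0.54 (skap, 20 days), −0.44 to 0.19 (Scsalpha, 20 days), −0.34 to 0.0525 (Nc73EF, 30 days), −0.63 to 0.36 (Idh, 30 days) and −0.68 to 0.20 (Idh, 40 days). Between later ages 6 more changed sign in females and 8 in males, within −0.17 to 0.23 and −0.49 to 0.29, none of them called. At 30 days in females, Scsalpha was at 0.22 without the mex1 libraries, and l(1)G0255 at 0.00422 with at least 10 counts in every library and 0.0191 with both sexes in 1 fit.

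Replicate letters did not pair the samples throughout: deviations of same-letter libraries correlated from −0.68 to 0.69 in females (8 of 18 pairs over 0.1) and from −0.42 to 0.36 in males (2 of 15). Among females of 20, 30 and 40 days the correlations were positive for letters A (0.326 to 0.69) and C (0.311 to 0.604). For letter B they ran from −0.235 to 0.0539. With the letter as a block the counts of members called at 20, 30 and 40 days were 2, 0 and 5 in females and 0 in males. The block ended 2 calls between later ages in females, that of Mdh2 from 30 to 40 days (adjusted p = 0.0661) and that of Scsalpha from 20 to 40 days (adjusted p = 0.0603).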
